A study of Mus musculus with 6 samples.

Results

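Rab GTPases and the DENN exchange factors that switch them on were examined in mouse cells transformed by NeuNDL, either wild-type or knockout for SLK. NeuNDL is a Neu (ErbB2) receptor kinase made active by a deletion, and SLK, a Ste20-like kinase, takes part in the migration of cells. A gene was a member if its symbol was Rab followed by a number and at most 1 letter, or began with Dennd, and if it had a probe set annotated to that symbol alone. This gave 73 members, 58 Rab genes and 15 Dennd genes, of 22180 genes tested. For a gene with several probe sets the brightest over all arrays was used, and the further probe sets of members are described below. There were 3 arrays of SLK-knockout cells and 3 of SLK wild-type cells. Both genotypes carried the NeuNDL transformation, were untreated and grew in DMEM/F12 with serum and a mammary epithelial growth supplement. The series names passages 9, 19 and 29 but ties none of them to an array, and the sources used here do not say how the knockout was made or from how many clones. Nothing says that the arrays of a genotype came from separate cultures, so the spread behind each p-value may be technical. Values are log2 signals as deposited, so a difference of 1 is a doubling, and fold changes are knockout minus wild-type.

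Rab proteins are small GTPases that mark the membranes of the secretory and endocytic pathways and recruit the motors, tethers and kinases that move or fuse them. Each cycles between a GDP-bound, inactive form and a GTP-bound, active form. Exchange factors load GTP, GTPase-activating proteins of the TBC family end the signal, and GDP dissociation inhibitors return the prenylated Rab to the cytosol. The DENN domain is the largest family of Rab exchange domains, and in work on human proteins most DENN genes act on a particular Rab or a small group of them. In mammary and other epithelia these proteins sort integrins, growth factor receptors and junction proteins between recycling to the surface and degradation in lysosomes.

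The promoters of Dennd2a, the only member past the test, and of Rab25, the Rab gene with the smallest p, are shown because these genes had the widest differences between the genotypes. Rab38, next in size, had no window. The motifs were chosen after the windows were seen. Of the 73 members 61 had a window in the RefSeq promoter table of GRCm38.p6, which runs from 250 bases before the annotated start to 50 after it. The Dennd2a window is chr6:39557785-39558084 and that of Rab25 is chr3:88548230-88548529, both on the minus strand and written 5′ to 3′ along the gene. Capitals mark CACCTG or its reverse complement CAGGTG, the letters known to be bound by the Zeb and Snail repressors of epithelial genes.
Dennd2a: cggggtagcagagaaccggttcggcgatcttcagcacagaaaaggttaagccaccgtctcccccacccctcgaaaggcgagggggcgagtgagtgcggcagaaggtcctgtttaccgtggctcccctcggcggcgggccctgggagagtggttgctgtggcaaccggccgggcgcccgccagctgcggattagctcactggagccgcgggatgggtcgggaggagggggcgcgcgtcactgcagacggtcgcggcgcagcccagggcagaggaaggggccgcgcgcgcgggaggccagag
Rab25: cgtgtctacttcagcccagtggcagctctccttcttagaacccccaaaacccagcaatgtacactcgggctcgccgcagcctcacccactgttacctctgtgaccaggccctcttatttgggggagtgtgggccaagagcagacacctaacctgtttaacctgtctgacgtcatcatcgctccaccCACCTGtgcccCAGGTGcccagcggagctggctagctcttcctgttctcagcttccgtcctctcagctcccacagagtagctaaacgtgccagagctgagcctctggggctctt
The Rab25 window held 2 matches, 1 on each strand, which began 64 and 53 bases before the start. The Dennd2a window held none. At least 1 match stood in 20.2% of all 32851 windows of this length and at least 2 in 2.88%. Neither window held CACGTG (in 7.15% of all windows), GGGCGG (35.7%) or TATAAA (13.6%) on either strand, and none of the searched letters overlapped. The Dennd2a window was rich in CpG, with 33 of these dinucleotides and a GC content of 70.7%, and 91.4% of all windows held fewer. The Rab25 window had 9 and a GC content of 58.3%, with 54.2% of windows holding fewer. A match describes the letters only.

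The arrays were alike, with medians between 3.93 and 3.97 and correlations of 0.990 to 0.994 across probe sets. Slk had 7.14, 7.21 and 7.20 on the knockout arrays and 8.21, 8.30 and 8.34 on the wild-type arrays. The difference was -1.10 on the log2 scale (SE 0.06), with a limma adjusted p of 0.0021. On the knockout arrays Slk thus still lay above the median gene's mean signal of 4.39. The luminal keratin Krt8 was bright, at 10.4 to 10.5 in knockout and 10.3 in wild-type cells. Epcam and Cdh1 lay above the median gene's mean signal of 4.39 on every array. Of 9 luminal markers 3, the keratin Krt19, Esrp1 and Cldn7, had means below that signal. The pan-leukocyte gene Ptprc was dim, at 2.03 to 2.29 in knockout and 2.11 to 2.33 in wild-type cells, and 6 of 7 leukocyte markers had means below that of the median gene. Of 7 fibroblast markers 6 were brighter than the median gene, among them Pdgfra (mean 7.67 over all arrays). The fibroblast markers were mixed, with 2 higher and 5 lower means in knockout cells. Of them Pdgfrb fell (log2 -0.67, adjusted p = 0.0066, lost under 2 of 15 alternatives). Col1a1, Col1a2 and Col3a1 had -0.33, -0.19 and -0.19 (adjusted p = 0.24, 0.30 and 0.38), and these and Pdgfrb were lower on every knockout array. Dcn had 0.43 (adjusted p = 0.10) and Pdgfra 0.10 (adjusted p = 0.56), both higher on every knockout array. The summed signal of the 7 fibroblast markers was 583 to 593 in knockout and 626 to 659 in wild-type cells. Of 4 adipocyte markers Fabp4 rose (log2 0.92, adjusted p = 0.029, lost under 6 of 15 alternatives), and the other 3, all dimmer than the median gene, had lower means in knockout cells (Cidec -0.31, Plin1 -0.18 and Adipoq -0.08, none past the test). The adipocyte sum, 173 to 180 in knockout and 103 to 123 in wild-type cells, was thus higher through Fabp4 alone. None of 7 leukocyte, 5 endothelial or 5 neuroendocrine markers passed the test. In such bulk samples fewer cells of a type and less RNA per cell cannot be told apart.

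The SLK-knockout genotype went with little movement in this gene family. Only Dennd2a fell and no member rose, 1 of 73 members (1.37%), where 0.437% of all genes tested passed in either direction, 0.113% passed with a lower and 0.325% with a higher signal in knockout cells. The median log2 fold change of the members was -0.01, against 0.00 for all genes, and 36 members had a higher and 37 a lower mean in knockout cells. The median size of the difference, whatever its sign, was 0.05 for members and 0.07 for all genes. Members were mostly bright, with 13 of 73 below the median gene, and their median SE was 0.06 against 0.08 for all genes. An unadjusted p under 0.05 was found for 6 members (8.22%), near the 10.2% of all genes. Groups that did not overlap were found for 14 members (19.2%), 10 of them lower and 4 higher, where 16.9% of all genes were separated, 8.1% lower and 8.79% higher. A difference of at least 1.3-fold was seen in 3 members (4.11%) and in 1.9% of all genes. At 1.25-fold, the size used first, the members were again 3 but the share of all genes was 3.35%, and both sizes and the 1.5-fold bound below were chosen after values had been seen. These were Dennd2a, Rab25 and Rab38, all lower in knockout cells, and the next widest difference was that of Rab4a at -0.26. For 67 members (91.8%) the 95% interval of the fold change lay within 1.5-fold in either direction, as it did for 94.2% of all genes. The members whose intervals reached past that bound were Dennd2a, Rab25, Rab38, Rab3c, Rab42 and Rab44.

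**Figure D1:**
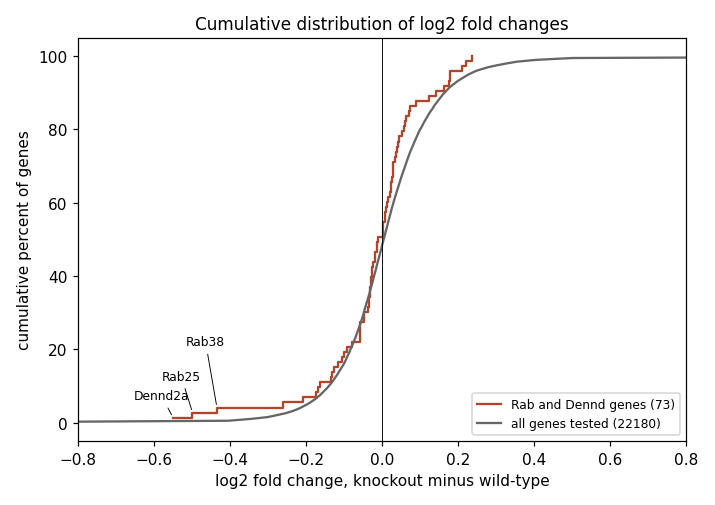
Cumulative percent of genes (y axis) against log2 fold change, knockout minus wild-type (x axis), for the 73 members (red steps) and all 22180 genes tested (grey line). The member curve is as steep as or steeper than that of all genes near 0, and Dennd2a, Rab25 and Rab38 form its lower tail, at -0.55, -0.50 and -0.43.

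**Figure D2:**
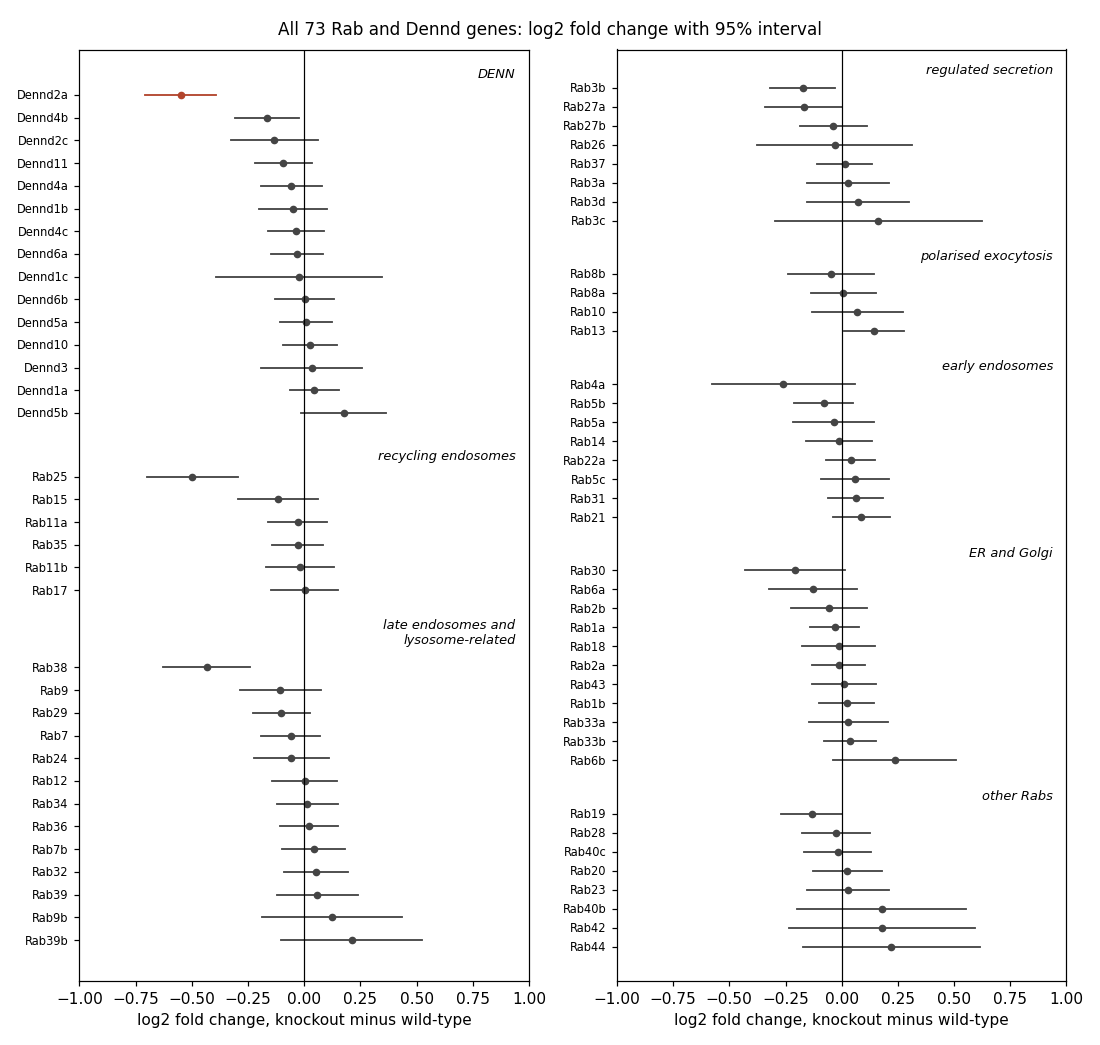
Log2 fold change (points) with its 95% interval from limma (lines) for every member, ordered within its role, with Dennd2a, the only member past the threshold, in red. Apart from Dennd2a, Rab25 and Rab38 the points lie between -0.26 and 0.24, and the widest intervals belong to Rab3c, Rab42 and Rab44.

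Dennd2a belongs to a group of DENN genes that act on Rab9 in human cells, where they take part in the return of receptors from late endosomes to the Golgi. Its signal (probe set 17466142) was 5.08, 4.93 and 5.11 on knockout arrays 1 to 3, against 5.64, 5.53 and 5.599 on wild-type arrays 1 to 3. All knockout arrays lay below all wild-type arrays, and the gap between the groups was wider than the range within either. The means were 5.04 ± 0.10 in knockout and 5.59 ± 0.05 in wild-type cells (SD, n = 3 each). The log2 fold change was -0.55 (SE 0.07, limma with Benjamini-Hochberg adjustment, adjusted p = 0.032). A dimmer probe set of Dennd2a gave 4.85, 4.90 and 4.90 in knockout cells and 5.004, 5.01 and 4.98 in wild-type cells. It too was lower on every knockout array, but by only 0.12 on the log2 scale (SE 0.05, unadjusted p = 0.045 among single-symbol probe sets). With the mean of both probe sets the log2 fold change was -0.33 and the call was lost (adjusted p = 0.069). The call was also lost whichever array was left out, with adjusted p from 0.097 to 0.14 and log2 fold changes from -0.59 to -0.50. The Snord genes, which encode small nucleolar RNAs, had a median log2 fold change of -0.19 with 44 of 47 lower in knockout cells, and their part in this result was not tested.

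**Figure D3:**
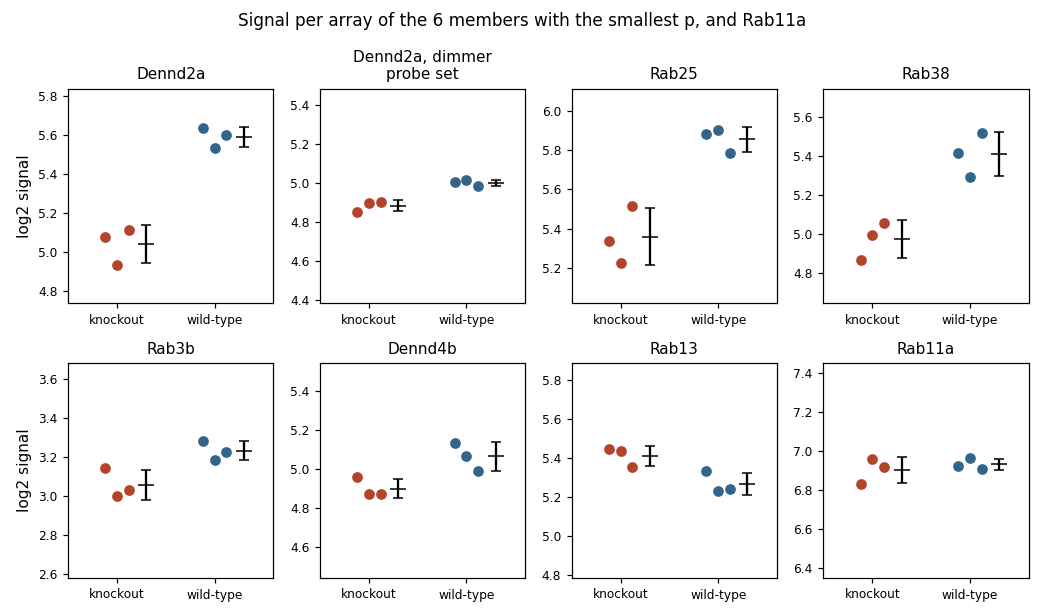
Log2 signal on each array (points) with mean and SD (black bars, n = 3), knockout in red and wild-type in blue, for the 6 members with the smallest p, the dimmer Dennd2a probe set and Rab11a, the close relative of Rab25. All panels span the same range of log2 units, so the gaps of Dennd2a, Rab25 and Rab38 can be compared with the smaller ones of the others.

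The chromosomal surroundings of the 3 members with the widest differences were compared with them, a choice made after their values were seen. The 8 tested protein-coding genes on either side of each in the RefSeq order were taken. None of 16 passed the threshold around Dennd2a, none around Rab25 and none around Rab38. Only 0.437% of all genes tested passed, so the lack of a call among 16 genes says little. Means were lower in knockout cells for 11 of 16 neighbours of Dennd2a, 12 of Rab25 and 10 of Rab38. Over all 22180 genes tested, 10751 had lower means. The neighbours of Dennd2a ranged from -0.16 to 0.23 on the log2 scale, those of Rab25 from -0.23 to 0.17 and those of Rab38 from -0.22 to 0.15. A pair of other members stand among the neighbours of Dennd2a on chromosome 6, namely Rab19, with a log2 fold change of -0.13, and Dennd11, with -0.09.

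The remaining 14 Dennd genes held no call, and all their log2 fold changes lay between -0.16 and 0.17. Dennd2c, of the same group as Dennd2a, had 4.67, 4.94 and 4.90 in knockout cells and 4.93, 4.999 and 4.98 in wild-type cells. The groups overlapped, and the log2 fold change was -0.13 (SE 0.08, adjusted p = 0.65). Without knockout array 1, the lowest, it was -0.05. The Rab9 genes on which this group acts were close to level: Rab9 had a log2 fold change of -0.11 (SE 0.07) and Rab9b one of 0.12 (SE 0.13). Rab9 guides mannose 6-phosphate receptors from late endosomes to the Golgi.

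Dennd4b, whose group acts on Rab10 in human cells, had 4.96, 4.87 and 4.87 in knockout cells and 5.14, 5.07 and 4.99 in wild-type cells. It was lower on every knockout array by a small margin (log2 -0.16, SE 0.06, adjusted p = 0.42), while Dennd4a had -0.06 and Dennd4c -0.04. Rab10 itself, which drives insertion of transporters and basement membrane secretion, had 0.07 (SE 0.08). Dennd5b, of the group that acts on Rab39, had 4.17, 3.96 and 4.20 in knockout cells and 3.95, 3.87 and 3.98 in wild-type cells. These groups overlapped and the log2 fold change was 0.17 (SE 0.08, adjusted p = 0.52), beside 0.01 for the bright Dennd5a.

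None of the Rab35 exchange factors of recycling endosomes passed the test. Dennd1a had a log2 fold change of 0.04 (SE 0.05), Dennd1b -0.05 (SE 0.06) and the dim Dennd1c -0.02 (SE 0.15), and Rab35, their target in human cells, had -0.03 (SE 0.05). Dennd3, which acts on Rab12, had 0.03 beside 0.00 for Rab12. Dennd6a and Dennd6b, which act on Rab14, had -0.03 and 0.00 beside -0.01 for Rab14. Dennd10 had 0.02 and Dennd11 -0.09 (SE 0.05, adjusted p = 0.63). The median log2 fold change of the 15 Dennd genes was -0.03.

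Among Rabs of recycling endosomes Rab25 had the lowest log2 fold change, which did not pass the test. Rab25 is an epithelial relative of Rab11 that returns integrins and receptors to the surface and is known for its part in breast and ovarian tumours. Its signal was 5.34, 5.22 and 5.51 on the knockout arrays and 5.88, 5.90 and 5.78 on the wild-type arrays. The groups did not overlap, and the log2 fold change was -0.50 (SE 0.08, 95% interval -0.70 to -0.30, adjusted p = 0.088). It passed the threshold under 4 of 15 alternatives, with adjusted p between 0.0091 and 0.044. Rab11a and Rab11b, the widely expressed members of the same subfamily, had log2 fold changes of -0.03 (95% interval -0.16 to 0.10) and -0.02 (-0.17 to 0.13). Rab15 had -0.12 (SE 0.08, adjusted p = 0.67) and Rab17, a Rab of epithelial transcytosis, was dim at 3.66 in either group, with a difference of 0.00 (-0.15 to 0.15). The motor gene Myo5b, an effector of Rab11 and Rab25 named after its values were seen, had 5.08, 5.21 and 5.06 in knockout cells against 5.42, 5.34 and 5.19 in wild-type cells, which overlapped (log2 -0.20, SE 0.08, adjusted p = 0.45).

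Epithelial markers are given beside Rab25. Of 9 luminal markers Cdh1 (E-cadherin) fell (log2 -0.43, SE 0.05, adjusted p = 0.022), and no marker was called higher. The Cdh1 call was lost under 8 of 15 alternatives. With the mean of its probe sets the log2 fold change of Cdh1 was -0.27 (SE 0.10, adjusted p = 0.45). Epcam, a surface adhesion protein, had -0.35 (adjusted p = 0.083) and the claudin gene Cldn7 -0.48 (adjusted p = 0.11). Epcam passed under 4 of 15 alternatives and Cldn7 under 2 of 14. The keratins Krt8 and Krt18 had 0.15 and 0.14 (adjusted p = 0.37 and 0.40), and each passed under 2 of 15 alternatives. In all 5 of the 9 had lower means in knockout cells. On every knockout array 3 of the 9 were lower and 4, among them Krt8 and Krt18, were higher. The summed linear signal of the list was 3653 to 3719 on knockout arrays and 3472 to 3542 on wild-type arrays, most of it from the keratins, and Krt19, Esrp1 and Cldn7 had means below that of the median gene. The part of epithelial state in the Rab25 difference was not tested. Of 6 measured basal markers Krt14 fell (log2 -0.66, adjusted p = 0.0096, lost under 6 of 15 alternatives) and none rose. Acta2 had -0.47 (adjusted p = 0.055) and, like Krt14, was lower on every knockout array. The means of the 6 markers were higher in knockout cells for 2 and lower for 4. On the higher side Mylk had 0.42 (adjusted p = 0.20), higher on every knockout array, and Oxtr 0.20 (adjusted p = 0.68). The summed signal of the 6 basal markers was 421 to 443 in knockout and 604 to 609 in wild-type cells.

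Rabs of late endosomes, lysosomes and lysosome-related organelles comprised 13 members with a median log2 fold change of 0.01 and no call. The widest difference was that of Rab38, which carries enzymes to melanosomes and other lysosome-related organelles. It had 4.87, 4.996 and 5.06 in knockout cells and 5.41, 5.29 and 5.52 in wild-type cells. Every knockout array lay below every wild-type array, with a log2 fold change of -0.43 (SE 0.08, 95% interval -0.63 to -0.24, adjusted p = 0.11). It passed under 3 of 15 alternatives, with adjusted p between 0.021 and 0.025. Its closest relative Rab32, which serves the same organelles, had 5.06, 5.16 and 5.04 in knockout cells and 5.02, 4.98 and 5.10 in wild-type cells. Those groups overlapped, and the interval of the difference ran from -0.09 to 0.20. Among 7 measured melanocyte and neural crest markers Sox10 rose (log2 1.47, SE 0.12, adjusted p = 0.0093, lost under 3 of 15 alternatives) and none fell. Of the 7, 5 had higher and 2 lower means in knockout cells. The summed signal of that list was 213 to 234 in knockout cells and 173 to 184 in wild-type cells. Most of the gap between these sums came from Sox10. Among the dim genes of the list Mlana was higher on every knockout array (log2 0.42, adjusted p = 0.49). S100b was lower on every knockout array (log2 -0.14, adjusted p = 0.48). Sox10 had the widest difference of the list, with means of 5.89 in knockout and 4.42 in wild-type cells. Mitf, the brightest gene of the list, had a log2 fold change of 0.03 (adjusted p = 0.86). The pigment enzyme genes Tyr and Dct were dim in either group, below the mean of the median gene on every array, and the part of these markers in the Rab38 difference was not tested.

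**Figure D4:**
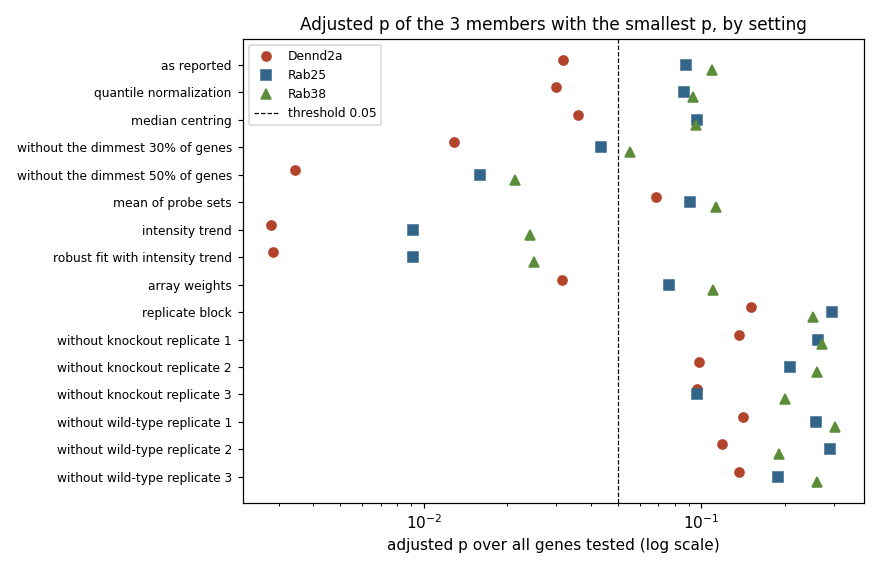
Adjusted p over all genes tested (x axis, log scale) of Dennd2a, Rab25 and Rab38 under the reported fit and each of 15 alternatives (y axis), with the threshold of 0.05 dashed. Dennd2a passes in the reported fit and in 7 alternatives, Rab25 passes in 4 and Rab38 in 3, and none passes with any array left out or with the replicate block.

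None of the other late endosomal Rabs passed the test. Rab7, which drives fusion of late endosomes with lysosomes, was the brightest member, at 11.39, 11.26 and 11.29 in knockout cells and 11.35, 11.37 and 11.41 in wild-type cells. These ranges overlapped (log2 -0.06, 95% interval -0.19 to 0.07). Rab29, a Rab of lysosomes and the Golgi that recruits the kinase Lrrk2, had 6.07, 5.97 and 6.07 in knockout cells and 6.12, 6.16 and 6.12 in wild-type cells. It was lower on every knockout array by 0.10 on average (SE 0.05, adjusted p = 0.59). Rab7b, Rab24, Rab34 and Rab36 had log2 fold changes of 0.04, -0.06, 0.01 and 0.02. Rab39b and Rab39 were dim, with 0.21 (SE 0.13, adjusted p = 0.65) and 0.06. Rab39b was higher on every knockout array. A high signal on knockout array 2 alone (3.74, beside 3.27 on each of the other knockout arrays) made most of the Rab39b difference.

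None of the 8 Rabs of regulated secretion passed the test, and their median log2 fold change was -0.01. Rab27a, which docks secretory granules and the vesicles that give rise to exosomes, had 6.45, 6.34 and 6.33 in knockout cells against 6.67, 6.47 and 6.49 in wild-type cells. It was lower on every knockout array (log2 -0.17, SE 0.07, adjusted p = 0.49). Its relative Rab27b had -0.04 (SE 0.06). Rab3b, of the subfamily that primes vesicles for release, was dim at 3.14, 2.998 and 3.03 in knockout cells and 3.28, 3.18 and 3.23 in wild-type cells (log2 -0.17, SE 0.06, adjusted p = 0.39). Rab3a, Rab3c and Rab3d had 0.03, 0.16 and 0.07, of which Rab3c was the least precise (95% interval -0.30 to 0.62). Rab26 and Rab37, both granule Rabs, were dim, with -0.03 and 0.01.

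Of the Rabs of polarised exocytosis, which deliver cargo from the Golgi and endosomes to the surface, Rab13 had the smallest p. Rab13 takes part in the assembly of tight junctions and in migration. It had 5.44, 5.43 and 5.35 in knockout cells and 5.33, 5.23 and 5.24 in wild-type cells. The groups were separated by a narrow margin, and the log2 fold change was 0.14 (SE 0.06, adjusted p = 0.45). Rab8a, a bright gene, had 0.01 (95% interval -0.13 to 0.15) and Rab8b -0.05 (-0.24 to 0.14).

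Of 8 early endosomal Rabs 4 had higher and 4 lower means in knockout cells, and none passed the test. Rab5a, Rab5b and Rab5c, which drive fusion of early endosomes, had log2 fold changes of -0.04, -0.08 and 0.06. Rab21, known for binding integrins and carrying them inward, had 9.26, 9.22 and 9.28 in knockout cells and 9.11, 9.23 and 9.15 in wild-type cells. The groups overlapped, and the log2 fold change was 0.09 (SE 0.05, adjusted p = 0.65). Rab31 had 0.06 and Rab22a 0.04, both between endosomes and the Golgi. Rab4a, a Rab of rapid recycling, varied most, with 4.72, 5.03 and 4.53 in knockout cells and 5.15, 4.95 and 4.96 in wild-type cells. The ranges overlapped (log2 -0.26, SE 0.13, adjusted p = 0.57), with knockout array 2 among the wild-type values.

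The 11 Rabs of the endoplasmic reticulum and Golgi held no call, and their intervals all lay within 1.5-fold. Rab1a and Rab1b, which carry cargo from the endoplasmic reticulum to the Golgi, were bright and had log2 fold changes of -0.03 (95% interval -0.14 to 0.08) and 0.02 (-0.10 to 0.14). Rab2a and Rab2b had -0.01 and -0.06, and Rab18, a Rab of lipid droplets and the endoplasmic reticulum, had -0.01. Rab6a, which runs from the Golgi outward and back, had 7.86, 7.92 and 8.06 in knockout cells and 7.98, 8.21 and 8.04 in wild-type cells (log2 -0.13, SE 0.08, adjusted p = 0.67). Its mainly neuronal relative Rab6b was dim and had 3.92, 4.30 and 4.31 in knockout cells against 3.99, 3.97 and 3.87 in wild-type cells. Knockout array 1 lay among the wild-type values there (log2 0.24, SE 0.11, adjusted p = 0.55). Rab30, a Golgi Rab, had 5.09, 4.96 and 5.087 in knockout cells and 5.43, 5.24 and 5.095 in wild-type cells, just apart (log2 -0.21, SE 0.09, adjusted p = 0.52). Rab33a, Rab33b and Rab43 had 0.03, 0.04 and 0.01.

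The 8 Rabs placed in no other group had no call either. Rab19 had 4.11, 4.02 and 4.05 in knockout cells and 4.22, 4.23 and 4.12 in wild-type cells, narrowly apart (log2 -0.13, SE 0.06, adjusted p = 0.50). Rab23, which restrains hedgehog signalling, had 0.03, and Rab28, a Rab of cilia, had -0.03. Rab20 had 0.03 and Rab40c, an adaptor of ubiquitin ligases, -0.02. The spread between arrays was wide for Rab40b, Rab42 and Rab44, whose SEs were 0.16, 0.17 and 0.16 and whose log2 fold changes were 0.18, 0.18 and 0.22.

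Of the 73 members 10 had more than 1 probe set, with 11 further probe sets among them. In 8 of the 11 the further probe set had the same sign as the brightest, and in 3, those of Rab6b, Rab8a and Rab39b, it had the opposite sign. The further Rab6b probe set had a log2 fold change of -0.16 (SE 0.08) where the brightest had 0.24. The further Rab39b probe set had -0.10 (SE 0.15) where the brightest had 0.21. Only the further probe set of Dennd2a had an unadjusted p under 0.05, and the other 10 had p of 0.098 or more.

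No gene passed the test among 133 measured genes from 6 lists of Rab regulators, Rab partners and DENN-domain genes. They comprised 12 DENN-domain genes, 24 other exchange factors, 41 GTPase-activating proteins, 6 genes of prenylation and GDP dissociation inhibition, 43 effectors and 7 Rab-like genes. The DENN-domain genes listed here have symbols that do not begin with Dennd, except Dennd10, which is also a member. They were listed for the domain, whether or not they act on a Rab. An unadjusted p under 0.05 was found for 9 of the 133 (6.77%), where 10.2% of all genes had one. The medians of the lists in that order were -0.01, -0.01, -0.01, -0.05, 0.00 and 0.07 on the log2 scale.

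The regulators with the smallest p were a GTPase-activating protein and an effector. Sgsm1, which has a TBC domain, had 5.67, 5.597 and 5.61 in knockout cells and 5.14, 5.34 and 5.24 in wild-type cells. It was higher on every knockout array (log2 0.39, SE 0.07, adjusted p = 0.090). Myrip, which ties Rab27a to myosins and the actin network, had 6.85, 6.96 and 6.83 in knockout cells and 6.56, 6.53 and 6.58 in wild-type cells. It too was higher on every knockout array (log2 0.32, SE 0.06, adjusted p = 0.097), while Rab27a lay lower on each. Next came Tbc1d31 at 0.28 (SE 0.06, adjusted p = 0.17) and the dim gene Mical1, an actin-oxidising enzyme that binds Rabs, at 0.45 (SE 0.11, adjusted p = 0.21).

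The other regulators named by rank within their lists had smaller differences. Als2cl, a relative of the Rab5 exchange factor alsin, had -0.22 (SE 0.06, adjusted p = 0.27), and the Rab5 exchange factor Rin3 had -0.14. Sbf2, a DENN gene of the myotubularin family, had -0.13, and Nprl2, listed for its DENN domain only, had -0.12. Rabac1, a prenylated Rab acceptor, had -0.14, and the Rab escort gene Chml -0.08. Ift27, a Rab-like protein of cilia, had 0.14, and Rabl2 0.07. Als2cl had the smallest adjusted p of these 8.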

How the data were processed

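The deposited table holds log2 values, 1 per probe set and array, made with Affymetrix Expression Console 1.4.1.46 per the submitters' processing notes. The sources used here do not state the background correction, normalization, summarisation or log base. The highest value, 12.4, exceeds the natural log of a 16-bit limit (11.1), so base 2 was taken. Such values compress fold changes, most of all for dim genes, and detection calls were not used. Of 41345 probe sets 23521 had 1 gene symbol in the platform annotation, 1814 had several and 16010 were not listed. All 73 members matched RefSeq (GRCm38.p6) by gene identifier.

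Samples were grouped by title. Genes were tested with limma 3.58.1 in R 4.3.3 (lmFit, eBayes without trend, no covariate, 6 arrays, two-sided), Benjamini-Hochberg over 22180 genes, threshold 0.05. The fit was tested on simulated data, where the planted changes were wider than the differences of most members. SEs are limma's moderated ones. The members, roles and lists were chosen with earlier results of these data known. Named with full statistics were Slk, every member past the threshold, the 20 members with the smallest p, and the 2 regulators per list with the smallest p. Other members are given by their values, and Myo5b and the markers named were picked with their values in view. The fit was repeated after quantile normalization or centring on the median, on genes above the 30th or 50th percentile of signal, on means of probe sets, with a trend in intensity (plain or robust), with array weights, with a replicate block and without each array.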

Additional observations from a re-analysis of the deposited data

How the results depend on the processing

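The direction of all 43 genes followed was the same in the 637 values recomputed under the 15 alternatives, and no value changed sign. Slk passed the threshold in all of them. For the members, 1 lower call became 2 without the dimmest 30% of genes, when Rab25 joined Dennd2a (adjusted p = 0.044), and 3 without the dimmest 50%, with an intensity trend and with a robust fit and trend, when Rab38 joined (0.021, 0.024 and 0.025). It became 0 with means of probe sets, and 0 with any array left out (0 to 0). No member was called higher in any setting. Among the regulators Sgsm1 and Myrip passed in 4 alternatives and Tbc1d31 in 3. Over all genes, 72 higher and 25 lower calls became 143 and 63 without the dimmest 30%, 202 and 139 without the dimmest 50%, 265 and 176 with a trend, 264 and 179 with a robust fit and trend, and 13 to 24 and 2 to 5 with an array left out. The filters test fewer genes, and the cause of the other changes was not tested.

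Replicates share the numbers 1 to 3 across genotypes, but same-numbered arrays did not deviate together (r = 0.04, 0.02 and -0.07 over genes), so the numbers were not taken as pairs. With the replicate block the counts were 5 higher and 1 lower over all genes and 0 lower for members (Dennd2a adjusted p = 0.15). Only 3 arrays per genotype limit every interval, and those of Rab3c, Rab42 and Rab44 were the widest among the members.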

Other observations

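A set of 4 probe sets lists a member symbol together with at least 1 other gene and was left out of the members. In a fit over all annotated probe sets 3 of them had log2 fold changes of 0.04, -0.00 and -0.02. The fourth, probe set 17401480, annotated to 2 symbols, had 3.78, 3.76 and 3.77 in knockout cells and 4.10, 4.004 and 4.004 in wild-type cells. All its knockout arrays lay below all its wild-type arrays, with a log2 fold change of -0.27 (SE 0.05, limma adjusted p = 0.14), and it cannot be assigned to either symbol.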
